A study of Mus musculus with 6 samples.

Results

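The genes described here are 10 transcriptional regulators of mitochondrial biogenesis, chosen by name from the 23154 genes of the count tables. They are the PGC-1 coactivators Ppargc1a, Ppargc1b and Pprc1, the estrogen-related receptors (ERRs) Esrra, Esrrb and Esrrg, and the DNA-binding factors Nrf1, Gabpa, Gabpb1 and Yy1. All 10 had reads and all 10 were tested. The cells were C2C12, an established mouse myoblast line whose cells fuse into myotubes, and no tissue or animal was sampled. RNA-seq was done on 3 libraries of a stable line carrying the doxycycline-inducible vector pINDUCER20b-HA-NUR77, which encodes HA-tagged NUR77, the orphan nuclear receptor of the gene Nr4a1, and on 3 libraries of the matching GFP line as control. Both lines received doxycycline at 1 µg/mL, 24 hours after seeding, and were lysed 18 hours later, so the agent was shared by the groups. The labels name 1 stable line per construct and 1 dish per replicate, so a difference between the lines and an effect of the construct cannot be told apart, and p-values measure the spread between dishes of a line. Libraries are called HA-NUR77 1 to 3 and GFP 1 to 3 by their replicate numbers.

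PGC-1 proteins do not bind DNA themselves but are recruited by nuclear receptors and other factors, among them the ERRs, and raise transcription of nuclear genes for oxidative phosphorylation, fatty acid oxidation and mitochondrial DNA maintenance. ERRs are orphan receptors that bind a single extended half-site, NRF1 binds palindromic GC-rich sites in many promoters of respiratory genes, and GABP is an ETS factor made of a DNA-binding alpha chain (Gabpa) and a beta chain with the activation domain (Gabpb1). In skeletal muscle this network is known for setting oxidative capacity during exercise and differentiation, and YY1 is known to act with PGC-1α at mitochondrial genes in muscle cells.

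Promoter sequence is shown for the receptor gene that rose (Esrra), the receptor gene that fell (Esrrb) and the GABP beta chain gene that fell (Gabpb1), as the 250 bases before the first listed start in RefSeq (GRCm38.p6). In the Esrra promoter the capitals mark the NRF1 core, found 34 bases before the start. No motif searched was found in the other 2, so they have no capitals.
Esrra (chr19:6921809-6922058, minus strand): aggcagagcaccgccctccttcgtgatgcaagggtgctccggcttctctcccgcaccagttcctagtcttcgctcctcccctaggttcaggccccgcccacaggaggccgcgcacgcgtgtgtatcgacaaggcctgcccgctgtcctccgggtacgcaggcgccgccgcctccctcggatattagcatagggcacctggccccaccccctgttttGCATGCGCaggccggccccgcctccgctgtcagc
Esrrb (chr12:86360867-86361116, plus strand): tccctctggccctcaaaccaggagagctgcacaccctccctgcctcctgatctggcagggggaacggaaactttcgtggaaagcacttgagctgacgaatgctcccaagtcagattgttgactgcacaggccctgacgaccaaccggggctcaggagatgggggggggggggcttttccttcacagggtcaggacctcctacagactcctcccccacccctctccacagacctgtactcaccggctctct
Gabpb1 (chr2:126675593-126675842, minus strand): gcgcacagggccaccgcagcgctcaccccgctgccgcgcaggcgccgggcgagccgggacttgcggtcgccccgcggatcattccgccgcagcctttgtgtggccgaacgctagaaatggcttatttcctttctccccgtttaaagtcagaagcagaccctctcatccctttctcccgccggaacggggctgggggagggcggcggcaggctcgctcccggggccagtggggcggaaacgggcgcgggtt
The Esrra and Gabpb1 windows were rich in G and C (68.4% and 69.6%) and held 22 and 30 CpG pairs. The Esrrb window was less so, with 60.8% and 6 CpG pairs, against medians of 52.4% and 6 over all 32851 mouse promoters of the table.

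Promoters were searched on both strands for GCATGCGC (NRF1 core), CCGGAAGT (ETS site of GABP), TCAAGGTCA (ERR element), AAAGGTCA (NBRE, the monomer element of NR4A receptors) and AAGATGGC (YY1 core). The ERR element and the NBRE share the letters AAGGTCA but cannot match at the same position on a strand. RefSeq listed 15 promoters for 9 of the 10 genes. The NRF1 core stood in 1 of them, that of Esrra, and in 2.26% of all promoters. The YY1 core stood in 1, that of Gabpa, 67 bases before the start on the minus strand, and in 1.57% of all promoters. The ETS site, the ERR element and the NBRE were in 0 of the 15, and in 2.88%, 0.387% and 1.34% of all promoters. A match is a run of letters and not a bound site, and binding was not measured.

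Library totals ran from 13906096 to 22821446 reads assigned to genes. Levels are in CPM, the reads of a gene scaled by library total and TMM factor. Nr4a1 itself did not pass the test (22.5 ± 3.03 CPM in HA-NUR77 and 20.4 ± 7.43 CPM in GFP, SD, n = 3, edgeR adjusted p = 0.698). No source used here names the species of the insert, so Nr4a1 does not check the labels, and directions below are those of the libraries as labelled. Of the myoblast genes, Des was the most abundant, while Pax7 was low, with 12.7% of tested genes at a lower level per kilobase. The summed level of the 14 myotube genes tested (most abundant Acta1) was 22110, 22880 and 26450 CPM in HA-NUR77 and 14540, 17230 and 21580 CPM in GFP, without overlap. Of these genes 3 rose, among them Myh8 and Myh3, and Myh1 fell, against 12.4% of all tested genes called higher and 13.2% lower. With the replicate number as a block 11 rose and 1 fell, against 23.5% and 24.6% of all tested genes. The rises numbered 1 after dropping HA-NUR77 3 or GFP 1 and 9 after dropping GFP 3, and 7 by DESeq2. These sums move with the group, and their part in the results below was not tested. In bulk RNA, fewer cells of a type and less RNA per cell cannot be told apart.

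Levels per kilobase of annotated exon placed the 10 genes over a wide range. Gabpa was highest at 18.4 CPM per kilobase as a mean of the 6 libraries, followed by Pprc1 at 10.5, Yy1 at 8.79 and Esrra at 6.97. Gabpb1 at 3.13, Ppargc1b at 2.62 and Nrf1 at 2.55 came next on the same scale, then Ppargc1a at 0.774, Esrrg at 0.194 and Esrrb at 0.120. Neighbours in this order whose ranges over the libraries overlapped were Yy1 and Esrra, Gabpb1 and Ppargc1b, Ppargc1b and Nrf1, and Esrrg and Esrrb. Of all tested genes, 78.2% had a lower level per kilobase than Gabpa, 53.2% than Esrra, 12.4% than Ppargc1a and 0.875% than Esrrb.

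**Figure D1:**
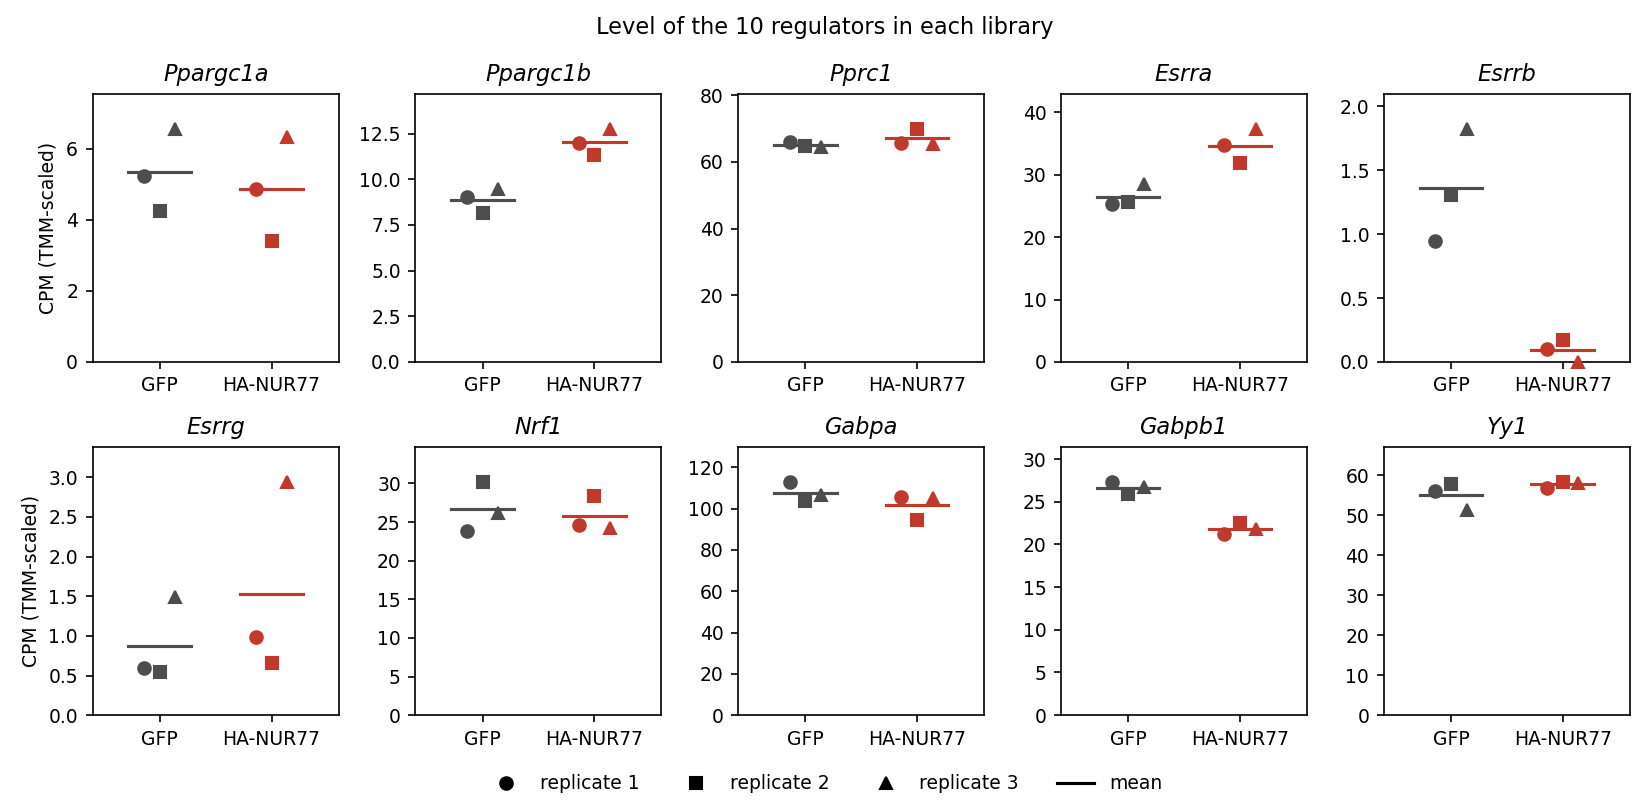
Level of each of the 10 genes in every library (vertical axis, CPM, with its own range from 0 for each gene). Points are libraries, shapes their replicate numbers and lines the mean of a group's 3 libraries. The groups do not overlap for Ppargc1b, Esrra, Esrrb and Gabpb1, and they overlap for the other 6 genes.

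In the comparison of HA-NUR77 with GFP, Ppargc1b and Esrra rose, Esrrb and Gabpb1 fell, and the other 6 did not pass the test. The test was edgeR's quasi-likelihood test over 12509 genes at an adjusted p of 0.05. The 2 that rose compare with 12.4% of all tested genes called higher, and the 2 that fell with 13.2% called lower. Of these 2, Esrrb had to differ in order to pass the filter on low counts, so it is counted as a description. The groups did not overlap for 4 of the 10, against 45.6% of all tested genes. Counts this close to the background are no result about the group of 10, whose median log2 fold change was 0.00 (all tested genes 0.01). With the replicate number as a block 3 rose, Esrrg being added, against 23.5% of all tested genes, and 2 fell, against 24.6%. After dropping HA-NUR77 1 or 3, or GFP 1 or 2, 0 members rose and 1, Esrrb, fell.

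**Figure D2:**
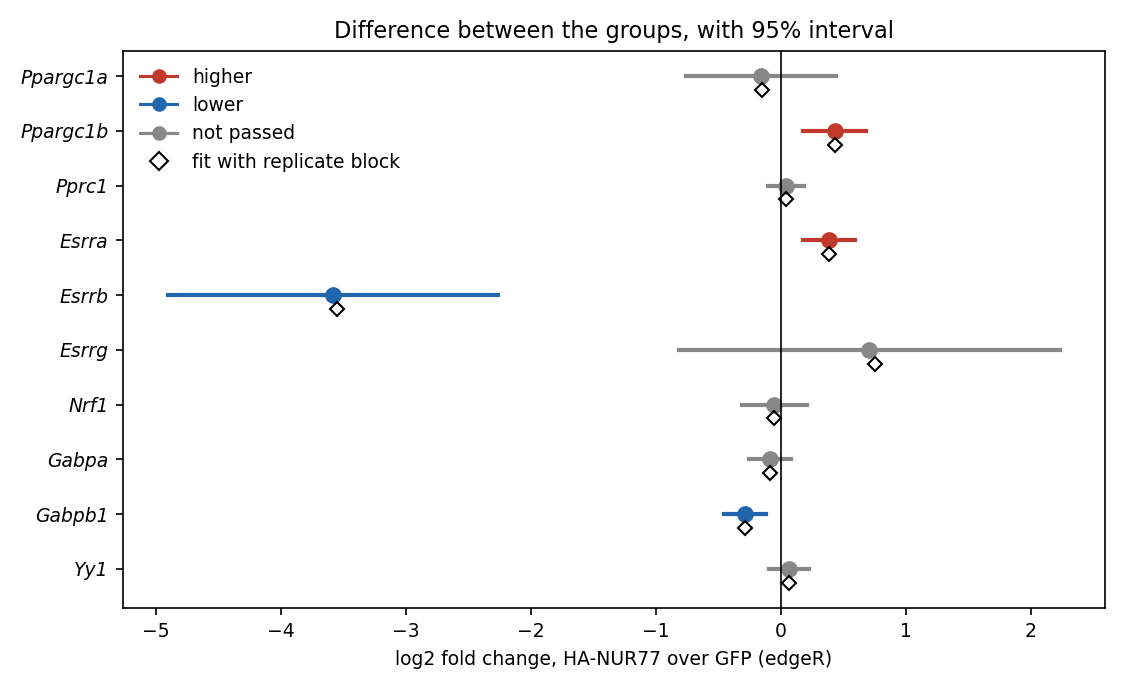
Fitted log2 fold change of HA-NUR77 over GFP for each of the 10 genes (horizontal axis, log2; vertical axis, genes; circles with bars are the edgeR estimate and 95% interval without the replicate block, coloured by call, and open diamonds the estimate with it). Intervals of Ppargc1b and Esrra lie above 0 and those of Esrrb and Gabpb1 below 0, with Esrrb at -3.59.

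Among the coactivators, Ppargc1b rose and the other two did not pass. Ppargc1b encodes PGC-1β, a coactivator of ERRs that is known to drive oxidative genes, and lies at chr18:61298136-61400431 (GRCm38, minus strand, ENSMUSG00000033871). It stood at 12.0, 11.3 and 12.8 CPM in HA-NUR77 1, 2 and 3 and at 9.02, 8.17 and 9.47 CPM in GFP. Every HA-NUR77 library was above every GFP library, and in both groups replicate 2 was lowest and replicate 3 highest. The log2 fold change was 0.43 (SE 0.11, 95% interval 0.18 to 0.69), or 1.35-fold, with an edgeR adjusted p of 0.025. This call did not hold after dropping HA-NUR77 1 or 3, or GFP 1 or 2 (edgeR adjusted p 0.0741 to 0.0816), with a range over all 17 alternatives of 0.00258 to 0.0816. The annotation places Mir378a, a microRNA, inside Ppargc1b on the same strand, and it was not analysed here.

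Ppargc1a encodes PGC-1α, the inducible coactivator that responds to exercise, cold and fasting. It stood at 4.86, 3.41 and 6.32 CPM in HA-NUR77 and 5.22, 4.26 and 6.56 CPM in GFP, from 62 to 97 reads per library. The groups overlapped, and again replicate 2 was lowest and replicate 3 highest in both. The log2 fold change was -0.16 (SE 0.26, edgeR adjusted p = 0.68), and the interval of -0.76 to 0.45 includes changes as large as that of Ppargc1b in either direction. Pprc1 encodes PRC, the coactivator of the family that is known to respond to serum and growth. It had 65.8, 70.0 and 65.3 CPM in HA-NUR77 and 66.1, 64.9 and 64.4 CPM in GFP. Its log2 fold change was 0.04 (SE 0.06, edgeR adjusted p = 0.636), with an interval of 0.932-fold to 1.14-fold. Pprc1 shares 177 exon bases with Ldb1 on the opposite strand, which fell (log2 fold change -0.30, edgeR adjusted p = 0.0369), and no source used here says whether the counting used strand.

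Within the family, Pprc1 made up most of the summed reads per kilobase in each library. Ppargc1b took 21.2%, 19.6% and 22.0% of the family sum in HA-NUR77 and 16.6%, 15.7% and 17.4% in GFP. Pprc1 had a mean of 74.0% against 77.4% and Ppargc1a of 5.11% against 6.04%. The log2 ratio of Ppargc1b to Ppargc1a was 2.03, 2.46 and 1.74 in HA-NUR77 and 1.51, 1.67 and 1.25 in GFP, per kilobase. The groups did not overlap, the mean difference was 0.60, and the two-sided exact permutation p was 0.1, the smallest that 3 against 3 libraries allow (0.25 adjusted over the 5 ratios tested).

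**Figure D3:**
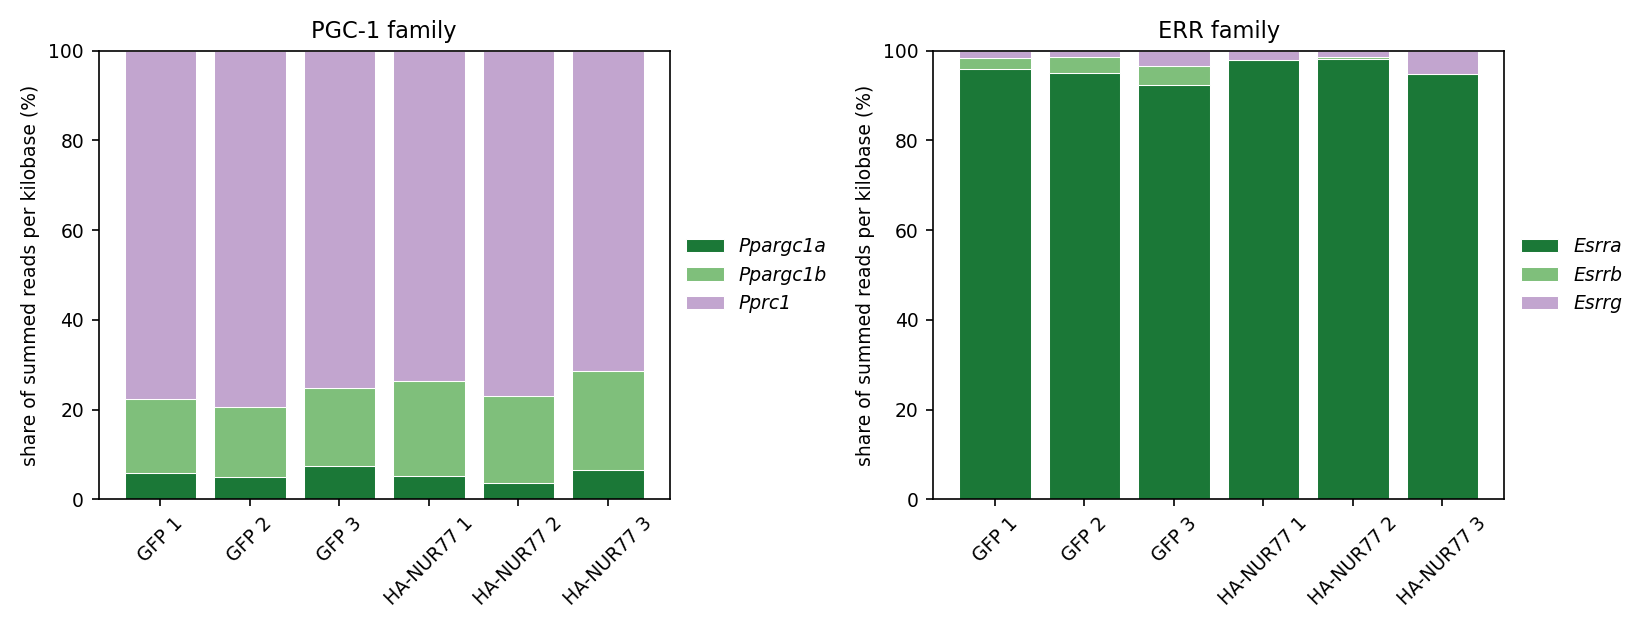
Share of each gene in its family's summed reads per kilobase (vertical axis, percent) in each of the 6 libraries (horizontal axis), for the PGC-1 coactivators on the left and the ERRs on the right. Pprc1 and Esrra take the largest share in every library, and Esrrb is 2.60% to 4.29% of the ERR sum in GFP and 0% to 0.389% in HA-NUR77.

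Of the receptors, Esrra rose, Esrrb fell and Esrrg did not pass. Esrra encodes ERRα, the ERR that is widely expressed and known to bind promoters of oxidative phosphorylation and fatty acid oxidation genes with PGC-1 coactivators (chr19:6910977-6921813, GRCm38, minus strand, ENSMUSG00000024955). It stood at 34.7, 32.0 and 37.4 CPM in HA-NUR77 and at 25.4, 25.6 and 28.5 CPM in GFP. All HA-NUR77 libraries were above all GFP libraries, and replicate 3 was highest in both groups. The log2 fold change was 0.39 (SE 0.09, 95% interval 0.18 to 0.59), or 1.31-fold, with an edgeR adjusted p of 0.0192. This call did not hold after dropping HA-NUR77 1 or 3, or GFP 1 or 2 (edgeR adjusted p 0.051 to 0.0722), with a range over all 17 alternatives of 0.000774 to 0.0722. Esrra shares 73 exon bases at its far end with Trmt112 on the opposite strand, whose log2 fold change was 0.22 (edgeR adjusted p = 0.0572, and 0.0228 with the block).

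Esrrb encodes ERRβ, known for its role in embryonic stem cells, placenta and the inner ear (chr12:86361117-86521628, GRCm38, plus strand, ENSMUSG00000021255). It had 2, 4 and 0 reads in HA-NUR77 and 16, 19 and 27 reads in GFP, or 0.103, 0.175 and 0 CPM against 0.949, 1.31 and 1.83 CPM. The 0 reads of HA-NUR77 3 allow a level of up to 0.216 CPM (3 counts). Every GFP library was above every HA-NUR77 library, and the gene was near the lower limit of detection in both groups. Summed over the groups, 6 reads stood against 62, a level 12.5-fold lower per read of depth (95% exact binomial interval 5.41 to 35.3, counting error only). The fitted log2 fold change was -3.59 (SE 0.57), with an edgeR adjusted p of 0.00512. Esrrb passed the main filter on low counts only through the GFP libraries, where it is high. It thus had to differ in order to be tested in the main fit, and its call is given as a description. It was not tested under a filter of 1 CPM in 3 libraries. The fitted log2 fold change ran from -4.33 to -3.19 over the 16 alternatives that tested it.

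Esrrg encodes ERRγ, which is known for its high level in oxidative muscle and heart. It had 19, 15 and 41 reads in HA-NUR77 and 10, 8 and 22 reads in GFP, or 0.982, 0.655 and 2.94 CPM against 0.593, 0.549 and 1.49 CPM. The groups overlapped, replicate 3 was highest and replicate 2 lowest in both, and each HA-NUR77 library was above the GFP library of its number. The log2 fold change was 0.71 (SE 0.65, 95% interval -0.82 to 2.24), with an edgeR adjusted p of 0.446. With the replicate number as a block it rose, with a fitted log2 change of 0.76 (edgeR adjusted p = 0.0452). Esrrg passed the filter on low counts through the HA-NUR77 libraries, where it is higher, so its blocked call is given as a description. It was not tested under a filter of 1 CPM in 3 libraries. Over 16 alternatives the adjusted p ran from 0.0312 to 0.905, and after dropping HA-NUR77 3 the log2 fold change was -0.10.

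Esrra made up 97.8%, 98.2% and 94.7% of the summed ERR reads per kilobase in HA-NUR77 and 95.8%, 95.1% and 92.3% in GFP. The groups overlapped (difference 2.53 percentage points, exact permutation p = 0.3, adjusted 0.5). The mean share of Esrrb was 0.200% against 3.47%, and that of Esrrg 2.88% against 2.14%. The log2 ratio of Esrra to Esrrg had means of 5.31 and 5.57 (difference -0.27, exact permutation p = 0.7, adjusted 0.875), and it was lowest in replicate 3 of both groups.

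Among the DNA-binding factors, Gabpb1 fell and Nrf1, Gabpa and Yy1 did not pass. Gabpb1 encodes the GABP beta chain that brings the activation domain and the nuclear localisation signal to the complex (chr2:126627442-126676337, GRCm38, minus strand, ENSMUSG00000027361). It stood at 21.3, 22.5 and 21.8 CPM in HA-NUR77 and at 27.3, 25.9 and 26.7 CPM in GFP. All HA-NUR77 libraries were below all GFP libraries, and the spread within each group was small (21.9 ± 0.646 against 26.7 ± 0.732, SD, n = 3). The log2 fold change was -0.29 (SE 0.07, 95% interval -0.46 to -0.12), or 1.22-fold lower, with an edgeR adjusted p of 0.0261. It did not hold after dropping any single library other than HA-NUR77 2 (edgeR adjusted p 0.0516 to 0.0994), and with an offset for gene length and GC content (log2 fold change -0.21, adjusted p = 0.0696), in a range over all 17 alternatives of 0.00796 to 0.0994.

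Gabpa encodes the alpha chain, which holds the ETS domain. It had 105.6, 94.5 and 104.9 CPM in HA-NUR77 and 113.0, 103.5 and 106.7 CPM in GFP, and the groups overlapped. The log2 fold change was -0.08 (SE 0.07, edgeR adjusted p = 0.413). Gabpa starts head to head with Atp5j, an ATP synthase subunit gene with which it shares 397 exon bases on the opposite strand, and Atp5j rose (log2 fold change 0.30, edgeR adjusted p = 0.0252). The log2 ratio of Gabpb1 to Gabpa per kilobase was -2.76, -2.52 and -2.72 in HA-NUR77 and -2.49, -2.45 and -2.44 in GFP. The groups did not overlap, with a difference of -0.20 and an exact permutation p of 0.1, the smallest possible (adjusted 0.25).

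Nrf1 encodes nuclear respiratory factor 1, an activator of respiratory chain, Tfam and mitochondrial import genes, and is not the NFE2-like factor whose protein has a similar name. It had 24.7, 28.3 and 24.3 CPM in HA-NUR77 and 23.8, 30.2 and 26.2 CPM in GFP. Replicate 2 was highest in both groups, which overlapped (log2 fold change -0.05, SE 0.11, edgeR adjusted p = 0.757). The log2 ratio of Nrf1 to Gabpa differed by 0.03 between the groups (exact permutation p = 0.9, adjusted 0.9). Yy1 encodes a zinc finger factor that activates or represses by context and that the title of the series names. It had 56.8, 58.4 and 58.0 CPM in HA-NUR77 and 56.1, 57.8 and 51.4 CPM in GFP. Only GFP replicate 3 was well below the others, and the interval of the change was 0.938-fold to 1.17-fold (log2 fold change 0.07, SE 0.07, edgeR adjusted p = 0.488).

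The coactivators and factors act on, and with, many other genes, and named lists of these were counted in the same fit. Of 14 known NRF1 and GABP target genes, 9 rose and 0 fell, against 12.4% of all tested genes called higher. Their median log2 fold change was 0.36, and that of all tested genes 0.01. They included Cox6c (log2 fold change 0.41), Sdhd (0.42), Atp5b (0.52), Cox4i1 (0.37) and Cycs (0.41), which encode respiratory chain and ATP synthase subunits and cytochrome c. Tfam, the mitochondrial DNA packaging and transcription factor, stood at 49.6, 44.5 and 55.9 CPM in HA-NUR77 and 34.9, 36.0 and 39.3 CPM in GFP, without overlap (log2 fold change 0.44, SE 0.10, edgeR adjusted p = 0.0174). The call of Tfam did not hold after dropping HA-NUR77 1, GFP 1 or GFP 2 (edgeR adjusted p up to 0.0683). At an unadjusted p of 0.05, edgeR gave 12 higher and 0 lower, and DESeq2 and limma-voom each called 9 higher and 0 lower. With the block 12 rose and 0 fell, against 23.5% and 24.6% of all tested genes. Of the targets 4 rose after dropping HA-NUR77 1, 4 after dropping GFP 1 and 5 after dropping GFP 2. In those fits 672, 642 and 927 of all genes were called higher, against 1549 with all libraries. Of 13 RefSeq promoters, listed for 11 of these 14 targets, 3 held the NRF1 core (Alas1, Cycs and Polrmt) and 1 the ETS site (Tfam).

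Of 11 known ERR target genes tested of 12 named, 5 rose and 1 fell (median log2 fold change 0.29), against 12.4% of all tested genes higher and 13.2% lower. With the block 7 rose and 2 fell, against 23.5% and 24.6%. Perm1, which encodes a muscle regulator induced by PGC-1 and ERRs, had 80, 115 and 64 reads in HA-NUR77 and 3, 1 and 4 in GFP. At equal depth that was a ratio of 26.8 (95% exact binomial interval 13.4 to 62.8, counting error only), and the fitted log2 value was 4.67 (SE 0.32, edgeR adjusted p = 0.000195). Perm1 passed the filter only through the HA-NUR77 libraries, where it is high, so it had to differ in order to be tested. Its call is given as a description. The 5 rises, and the 7 with the block, include Perm1, so the comparison with all tested genes is a description too. Atp5b, Cycs, Slc25a4 (adenine nucleotide translocator, 0.32) and Acadm (medium-chain acyl-CoA dehydrogenase, 0.29) also rose. Atp5b and Cycs are in the list of NRF1 and GABP targets too, so the 2 lists are not separate sets of genes. Pdk4, the kinase that inhibits pyruvate dehydrogenase, fell (log2 fold change -0.30, edgeR adjusted p = 0.0498). The rises numbered 2 after dropping HA-NUR77 1 or GFP 1, 3 after dropping HA-NUR77 3 or GFP 2 and 3 with the length and GC offset. Those 3 with the offset were Perm1, Atp5b and Cycs, each of which is also in another list. Acadm and Slc25a4 lost their call there (edgeR adjusted p = 0.0736 and 0.0826). The call of Pdk4, the single fall, did not hold with library totals only, with upper-quartile factors, or after dropping any single library other than HA-NUR77 3. With the length and GC offset 2 genes of the list fell. RefSeq listed 13 promoters for 9 of the ERR targets, and 0 of them held the ERR element or the NBRE. The NRF1 core stood in 2 (Acadm and Cycs) and the ETS site in 1.

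**Figure D4:**
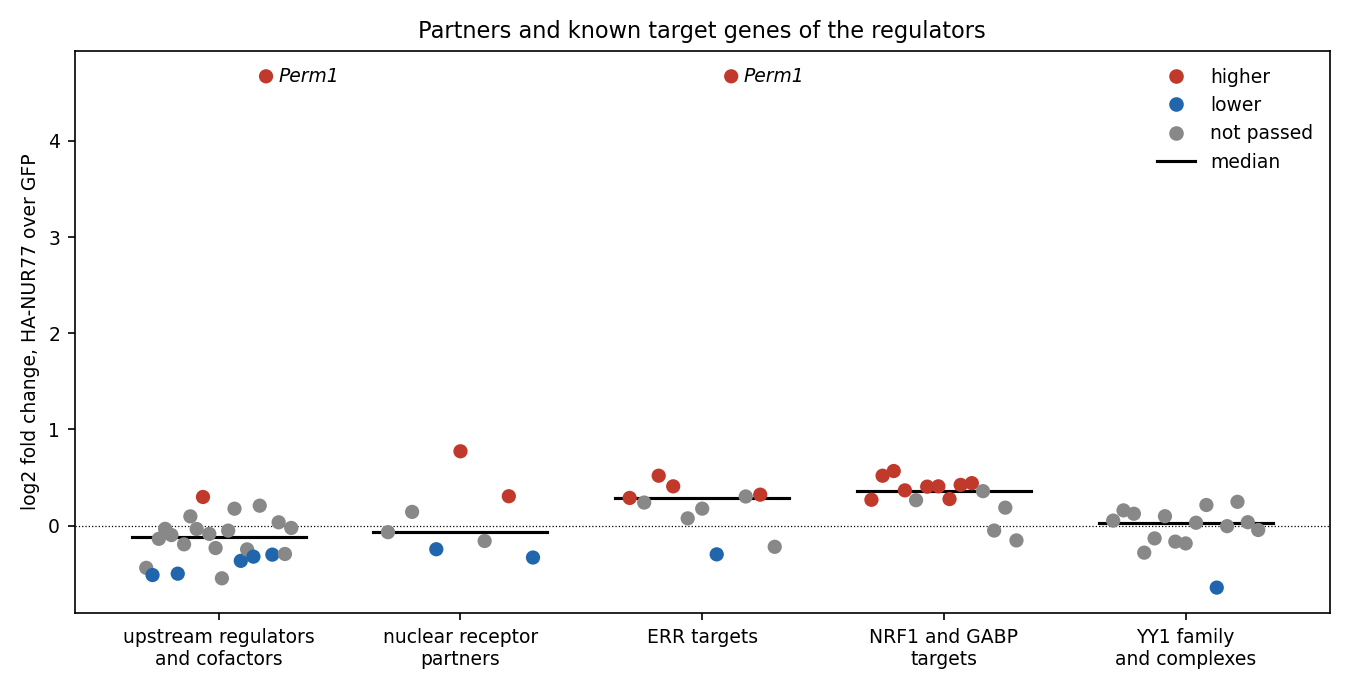
Fitted log2 fold change of HA-NUR77 over GFP (vertical axis, log2) for each tested gene of 5 lists (horizontal axis), where each point is a gene, red and blue points passed edgeR's test as higher and lower, grey points did not, and lines are medians. The NRF1 and GABP targets called lie above 0, and the upstream regulators called lie on both sides. Perm1, Atp5b and Cycs are each in 2 lists, and Perm1 stands at 4.67.

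Upstream regulators and cofactors of PGC-1 and ERRs, of which 24 of 26 named were tested, gave 2 higher and 5 lower, or 8.33% and 20.8%, against 12.4% and 13.2% of all tested genes. Their median log2 fold change was -0.12. The genes that rose were Perm1, counted here too, and Mapk14 (0.30), the p38α kinase that acts on PGC-1α. The call of Perm1 is a description, so the 8.33% includes a gene that had to differ to be tested. Those that fell were Crtc3 (-0.50) and Creb1 (-0.51), which act together in cAMP signalling to the Ppargc1a promoter, the coactivator Ncoa1 (-0.37), the corepressor Ncor1 (-0.32) and, named after its value was seen, the calcineurin subunit Ppp3ca (-0.30). With the block 4 rose and 11 fell, against 23.5% and 24.6% of all tested genes. With the length and GC offset 4 rose and 2 fell, and Creb1 (edgeR adjusted p = 0.0756), Ncor1 (0.0879) and Ppp3ca (0.105) lost their call, while DESeq2 called 8 lower. The falls numbered 2 after dropping HA-NUR77 1 or GFP 1 and 3 after dropping HA-NUR77 2, and the rises 1 after dropping GFP 1 or 2.

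Of 7 nuclear receptor partners tested of 11 named, 2 rose and 2 fell, or 28.6% each way, against 12.4% and 13.2% of all tested genes. Pparg (log2 fold change 0.77) and Rxrb (0.31) rose, and Ppard (-0.24) and Thra (-0.33), the thyroid hormone receptor alpha gene, fell. With the length and GC offset 1 rose and 1 fell, Pparg (edgeR adjusted p = 0.0594) and Ppard (0.0823) losing their call. Pparg also lost it after thinning to the smallest library, and Ppard with no filter on low counts. The rises numbered 0 after dropping HA-NUR77 1 or 3 or GFP 1, and 1 after dropping GFP 2 or 3. The falls numbered 0 after dropping HA-NUR77 1 and 1 after dropping any other library. Of 15 YY1 family and complex genes tested, 0 rose and 1 fell, against 12.4% and 13.2% of all tested genes. The gene that fell was Rnf2, a ubiquitin ligase of Polycomb complexes (log2 fold change -0.64, edgeR adjusted p = 0.00459). At an unadjusted p of 0.05 edgeR gave 2 higher and 2 lower, DESeq2 and limma-voom called 0 higher, and 2 fell after dropping GFP 3. With the block 3 rose and 4 fell, against 23.5% and 24.6% of all tested genes. None of the 3 genes most like Gabpb1 or Nrf1 in name passed (Gabpb2, Nfe2l1 and Nfe2l2), with 0 higher and 1 lower at an unadjusted p of 0.05 in edgeR and 0 by DESeq2 and limma-voom. Gabpb2, the other GABP beta chain gene, had a log2 fold change of -0.19 (edgeR adjusted p = 0.0872, and 0.0286 with the block).

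Genes whose log2 CPM was most like that of the 3 called members with at least 5 CPM were found by Pearson's r over the 6 libraries, a description in which the difference between groups is included. For Ppargc1b they were Acadvl, Fahd1 and Sdhb, with r from 0.996 to 0.999, and 422 genes had an r over 0.95. For Esrra they were Atp6v1c2, Amacr and Abcd2 (r from 0.997 to 0.998), with 596 genes over 0.95. For Gabpb1 they were Fzd4, Fjx1 and Mdga1 (r of 0.997), with 439 genes over 0.95.

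Markers of other cell types were read in the same libraries, and their part in the results was not tested. Of all tested genes, 12.4% were called higher and 13.2% lower, the background for each list here. Of 7 myoblast genes tested (most abundant Des), 2 rose, Itga7 and Cdh15, and 0 fell. With the replicate number as a block 4 rose and 2 fell (Myf5 and Megf10), against 23.5% and 24.6% of all tested genes. Summed levels of the myoblast genes were 6101 to 6888 CPM in HA-NUR77 and 3969 to 5271 CPM in GFP. Of 5 fibroblast or mesenchymal genes tested (most abundant Col3a1), 1 rose and 3 fell, among them Pdgfra and Pi16, and Thy1 had 0 reads. Their sums were 5115 to 5936 CPM in HA-NUR77 and 6872 to 8393 CPM in GFP. Most of each sum was Col3a1 (means of 5167 and 6978 CPM). Dcn did not pass, with means of 393.2 and 361.5 CPM and overlapping groups. Macrophage markers summed to 3.52 to 4.86 CPM in HA-NUR77 and 2.14 to 3.45 CPM in GFP, of 2 tested 1 rose (Csf1r). Endothelial markers summed to 1.27 to 1.81 CPM and 1.02 to 2.14 CPM with 0 of 2 called (edgeR, DESeq2 and limma-voom, 0 also at an unadjusted p of 0.05). Adipocyte markers reached at most 0.175 and 0.178 CPM, with 4 of 6 at 0 reads. Neuronal markers summed to 124.7 to 147.8 CPM and 113.0 to 133.1 CPM, most from Stmn2 and Map2, of which Map2 rose, and Rbfox3 had 0 reads. Csf1r and the fibroblast gene Dpt passed the filter on low counts through the HA-NUR77 libraries, where they are high, so their calls are given as a description. Csf1r also shares 873 exon bases with a gene on the opposite strand that had 4817 reads over all libraries. Single libraries decided some of the marker calls. The rise of Csf1r did not hold after dropping HA-NUR77 1 or 2 or GFP 1 or 3, that of Map2 after dropping HA-NUR77 1 or 3 or GFP 1 or 2, and that of the fibroblast gene Dpt after dropping HA-NUR77 1 or GFP 2, and 4 myoblast genes rose after dropping GFP 3.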

How the data were processed

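Poly(A) RNA of C2C12 cells was sequenced with a stranded kit, per the labels' protocols. The deposited values are raw counts of reads per Ensembl gene made by the authors, 1 table per library, from TopHat2 2.1 and HTSeq on mm10, per the submitters' processing notes, which also name DESeq2. The annotation release and strand setting of the counting are not given in the sources used here. Symbols, coordinates and exon lengths came from GENCODE M21 on GRCm38, which matched 22888 of 23154 gene IDs.

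Counts were tested with edgeR 4.0.16 (R 4.3.3), robust quasi-likelihood, TMM factors, group as the only term, filterByExpr with a minimum count of 10, and Benjamini-Hochberg adjustment over 12509 genes at 0.05. CPM used library totals of tested genes and TMM factors, and levels per kilobase the union of annotated exons. Ratios between members were tested by exact permutation over libraries. Alternatives used DESeq2 1.42.0, limma 3.58.1 (voom), other scalings and filters, thinning, a length and GC offset, the replicate block and each library left out. Intervals and limits for few reads cover counting error only (95% level). Only the edgeR fit without the block was tested on simulated data, and the alternatives were not.

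The labels number replicates 1 to 3 in both groups without naming a shared day. Around their group means, log2 CPM values had a correlation across genes of 0.24, 0.537 and 0.46 between libraries of number 1, 2 and 3, each over 0.1, so the numbers were taken to pair the libraries from the data, not from a label, and the blocked value stands beside each call it changes. No 2 libraries of a group agreed within sampling noise (chi-square per degree of freedom 11.4 to 28.8).

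The members and lists were chosen with earlier results of these data known. The text names all 10 members, Nr4a1, up to 6 called genes of each list by smallest adjusted p or the most abundant where none passed, the most abundant and up to 2 called genes of each marker list, and the 3 genes most correlated with each called member of at least 5 CPM. Cox17, Alas1 and Polrmt also rose in the target list. These, Ppp3ca, Dpt, Dcn, Pax7, Myf5, Megf10, Gabpb2, Nfe2l2 and genes that overlap a member were named after their values were seen. Promoters came from RefSeq (GRCm38.p6), and protein sequences of the ERRs were not used here.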

Additional observations from a re-analysis of the deposited data

How the results depend on the processing

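The 3 libraries per group limit the calls: Ppargc1b, Esrra and Gabpb1 each lost their call without some single library. In the main fit Esrrb was tested only because the GFP libraries were high, and Esrrg passed the filter through the HA-NUR77 libraries, where it is higher. With no filter on low counts the log2 fold change of Esrrb was -3.585. Ppargc1a, Esrrb and Esrrg rest on under 100 reads per library. Over the fits that leave out 1 library each, 642 to 1489 genes were higher and 850 to 1572 lower, and of the 10 members 0 to 2 were higher and 1 to 2 lower. With the replicate block, 2942 genes were higher and 3071 lower (3255 and 2699 with the length and GC offset added), and among the 10 members it changed the call of Esrrg alone. The members called lower numbered 1 with the filter at 1 CPM, where Esrrb was not tested, and 1 with the length and GC offset, where Gabpb1 lost its call. Directions of values that did not pass a test reversed in some alternatives, and the cause was not tested. With the length and GC offset the log2 fold changes were 0.079 for Nrf1 and 0.010 for Gabpa, and with the block added 0.078 and 0.010. Over the fits that leave out 1 library each, log2 fold changes ran from -0.38 to 0.056 for Ppargc1a, from -0.10 to 1.30 for Esrrg, from -0.13 to 0.046 for Nrf1 and from -0.082 to 0.44 for Nr4a1. The difference in the log2 ratio of Nrf1 to Gabpa ran from -0.089 to 0.15, and that of Esrra to Esrrg from -0.68 to 0.30. The reversals came after dropping HA-NUR77 2 or GFP 3 (Ppargc1a), HA-NUR77 3 (Esrrg and its ratio), GFP 2 (Nrf1 and Nr4a1), and HA-NUR77 2 or GFP 1 (the Nrf1 to Gabpa ratio). All 17 alternatives were run.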
